A study of Homo sapiens with 18 samples.

Results

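The genes described here are 10 neighbours of the beta-globin locus on chromosome 11, 4 globin genes (HBE1, HBG1, HBG2 and HBB) and 6 olfactory receptor genes of family 51 (OR51B2, OR51B4, OR51B5, OR51B6, OR51I1 and OR51I2). They were taken by symbol from a table of read counts for 25369 genes, and all 10 were found in it. OR51B5 had been picked for its change in the D425 cell line, and the other 9 genes were added as its neighbours and relatives. The D425 comparisons, the comparison of the control groups of the lines and the difference between the lines are therefore given as values with their error and without a p-value. OR51B5 was not picked from the D458 hairpin comparisons, and those are tested. Earlier results of these data were known when the genes and lists were chosen, so these tests may not be fully independent of the choice.

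The study measured polyadenylated RNA from D425 and D458, established human cell lines of Group 3 medulloblastoma, a malignant cerebellar tumour of childhood. In D425 the groups were cells with EYA2 hairpin 6, cells with EYA2 hairpin 8 and cells with a non-targeting control hairpin. In D458 they were cells with EYA2 hairpin 7, cells with EYA2 hairpin 8 and cells with the non-targeting control, and every group held 3 libraries labelled as biological replicates. EYA2 belongs to the eyes absent family of transcriptional coactivators with phosphatase activity. All groups, controls included, carried an integrated hairpin construct with zsGreen and were kept under puromycin (1 µg/mL) during 48 h of selection. The brightest 10% of cells were sorted and left for 24 h before RNA was taken, so every group is a transduced and sorted pool.

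Each library held between 21260369 and 31552051 counts. EYA2 itself averaged 11.9 ± 2.87 and 14.1 ± 3.01 CPM (counts scaled to a common library size) in D425 with hairpins 6 and 8, against 27.9 ± 14.3 CPM in D425 controls (SD, n = 3 each). The D425 control libraries differed among themselves, at 43.6, 24.6 and 15.5 CPM of EYA2 in replicates 1, 2 and 3, and they overlapped hairpin 8, whose highest library had 17.5 CPM. In D458, EYA2 averaged 48.1 ± 3.43 and 20.3 ± 2.77 CPM with hairpins 7 and 8, against 70.3 ± 3.16 CPM in controls, with no overlap. The EYA2 decrease with hairpin 7 missed the threshold of the edgeR test used throughout (log2 fold change -0.55, adjusted p = 0.137) and passed it with the replicate number as a block (adjusted p = 0.00692). MYC, the driver oncogene of many Group 3 tumours, averaged between 2447 and 4048 CPM in the 6 groups.

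The beta-globin genes lie side by side and are used in turn during development. HBE1 encodes the epsilon chain of embryonic haemoglobin, HBG1 and HBG2 encode the near-identical gamma chains of the fetal form, and HBB encodes the adult beta chain. A distal enhancer, the locus control region, lies beyond HBE1 and drives these genes in red cell precursors. Olfactory receptor genes flank the cluster on both sides, and each encodes a G protein-coupled receptor that is normally made in olfactory sensory neurons. Neither kind of gene is a usual product of cerebellar cells.

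In the RefSeq order, HBB, HBG1, HBG2 and HBE1 are followed by OR51B4, OR51B2 and OR51B5. OR51B6, OR51I1 and OR51I2 come next and lie within the annotated span of OR51B5. In GENCODE release 29, 4 of 5 OR51B5 transcripts share their initial exon with HBE1 or HBG2 transcripts, as do 2 of 3 HBE1 transcripts and 1 of 3 HBG2 transcripts. How the counting treated reads of such shared exons is not given in the sources used here, so counts of OR51B5, HBE1 and HBG2 are uncertain to that extent. The strand setting of the counting is not given either, and it bears on the receptor genes that lie inside OR51B5. Gene lengths were not used, so counts and CPM of different genes set side by side are shares of reads and not expression levels.

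Across all 18 libraries, HBE1 had 39114 counts, OR51B5 6954, OR51B4 3781, HBG2 384, OR51I1 329 and OR51B2 113. The other 4 genes were nearly silent. HBG1 had 10 counts in 5 libraries, HBB had 3 counts in 3 libraries, OR51I2 had 3 counts, all in D458 controls, and OR51B6 had 0. A total of 0 allows up to 3 counts over the 18 libraries, as counting error only. The filter on low counts kept 6 of the 10 genes (HBE1, HBG2, OR51B4, OR51B5, OR51B2 and OR51I1). OR51B2 reached the filter level in 3 libraries, all D458 controls, and so was kept only through the group in which it was highest.

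Counts were not spread evenly over the neighbourhood. Among the 8 other genes between OR51V1 and UBQLNL that the table lists, 5 had any count, and the highest sum over 18 libraries was 43, for UBQLNL, a ubiquilin-like gene. The adult-type delta globin gene HBD had 1 count, and the pseudogene HBBP1 had 5. OR51M1 had 0 counts and OR51Q1 had 1 count, although both lie inside OR51B5 as OR51I1 does. Of 45 other olfactory receptor genes of the same chromosome arm, 7 had any count and 0 were abundant enough to test, and their summed level was at most 0.34 CPM in any library.

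**Figure D1:**
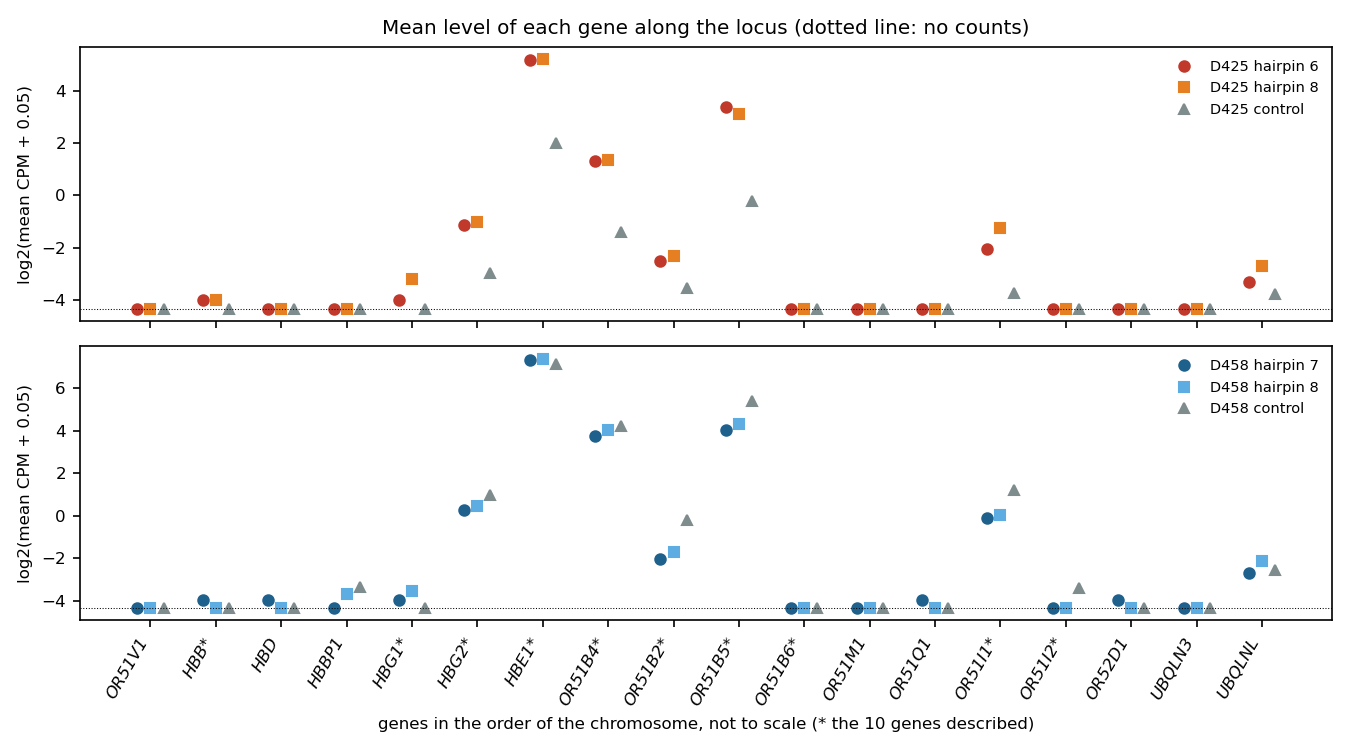
Mean level of each listed gene in the order of the chromosome (not to scale), as log2 of the mean CPM of 3 libraries plus 0.05, in D425 (top) and D458 (bottom), with a dotted line for no counts. HBE1, OR51B4 and OR51B5 stand above the line in every group, while HBB, HBD, OR51M1 and OR51Q1 lie on it or beside it.

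In D425 the genes that were transcribed at all were higher with either EYA2 hairpin than with the control. HBE1 had 25.1, 41.9 and 42.4 CPM with hairpin 6 and 27.9, 37.5 and 44.3 CPM with hairpin 8, against 6.98, 2.65 and 2.25 CPM in controls. Every hairpin library lay above every control library, and control replicate 1 was the highest of the controls. The difference in log2 CPM was 3.21 ± 0.33 with hairpin 6 and 3.22 ± 0.33 with hairpin 8 (SE).

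OR51B5, the receptor gene that was picked from these comparisons, had 6.65, 14.3 and 9.99 CPM with hairpin 6 and 6.85, 9.81 and 9.43 CPM with hairpin 8. Its controls had 1.35, 0.708 and 0.381 CPM, again without overlap. The log2 fold changes were 3.67 ± 0.36 and 3.43 ± 0.36 with hairpins 6 and 8. OR51B4, the receptor gene nearest to HBE1, had 2.02, 2.49 and 2.77 CPM with hairpin 6 and 2.50, 2.31 and 2.69 CPM with hairpin 8, against 0.622, 0.298 and 0.0635 CPM in controls. The OR51B4 groups did not overlap, and its log2 fold changes were 2.91 ± 0.39 and 2.95 ± 0.39. HBE1, OR51B4 and OR51B5 thus shared an order in D425, with all 6 hairpin libraries above the controls and control replicate 1 nearest to them.

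Control replicate 1 of D425 was also the library with the highest EYA2 level of its group. In the sample descriptions, replicate 1 of every group carries an earlier date than replicates 2 and 3, which share a date, so this library also differs in date from the other controls. Without it, the D425 log2 fold changes were larger, 3.90 for HBE1 with both hairpins, 4.25 and 4.01 for OR51B5, and 3.78 and 3.82 for OR51B4 with hairpins 6 and 8. With the 12 libraries of the later date alone, they were 4.11 and 4.07 for HBE1, 4.49 and 4.16 for OR51B5, and 3.90 and 3.82 for OR51B4.

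The remaining genes had few counts in D425. HBG2, a fetal gamma globin gene, had 9, 11 and 13 counts with hairpin 6 and 6, 11 and 21 counts with hairpin 8, against 1, 2 and 4 counts in controls. Its log2 fold changes were 2.26 ± 0.56 and 2.36 ± 0.55. OR51I1 had 0, 7 and 9 counts with hairpin 6 and 8, 14 and 10 counts with hairpin 8, against 1, 1 and 0 counts in controls. The ratio of the summed counts, scaled to library size, was 8.46 with hairpin 6 (exact 95% interval 1.99 to 75.9) and 15.8 with hairpin 8 (4.03 to 136). OR51B2 had 5, 3 and 2 counts with hairpin 6 and 4, 3 and 6 counts with hairpin 8, against 3, 0 and 0 counts in controls. Its ratio was 3.53 (0.908 to 19.9) with hairpin 6 and 4.28 (1.18 to 23.4) with hairpin 8. These intervals cover counting error only.

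Of the 6 genes tested in D425, 4 were called higher with hairpin 6 (HBE1, HBG2, OR51B4 and OR51B5) and 5 with hairpin 8 (these and OR51I1). Over all 14850 genes tested, 14.1% were called with hairpin 6, with 7.31% called higher, and 21.7% with hairpin 8, with 11.6% called higher. All hairpin libraries lay above all controls for 4 of the 6 genes with hairpin 6 and for 6 with hairpin 8, as they did for 18.6% and 18.5% of all genes tested. For OR51B2 with hairpin 8 this holds only after scaling, since the lowest hairpin library and the highest control library both had 3 counts. Since these comparisons chose the genes, the counts are a description. Both comparisons share the same 3 control libraries.

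**Figure D2:**
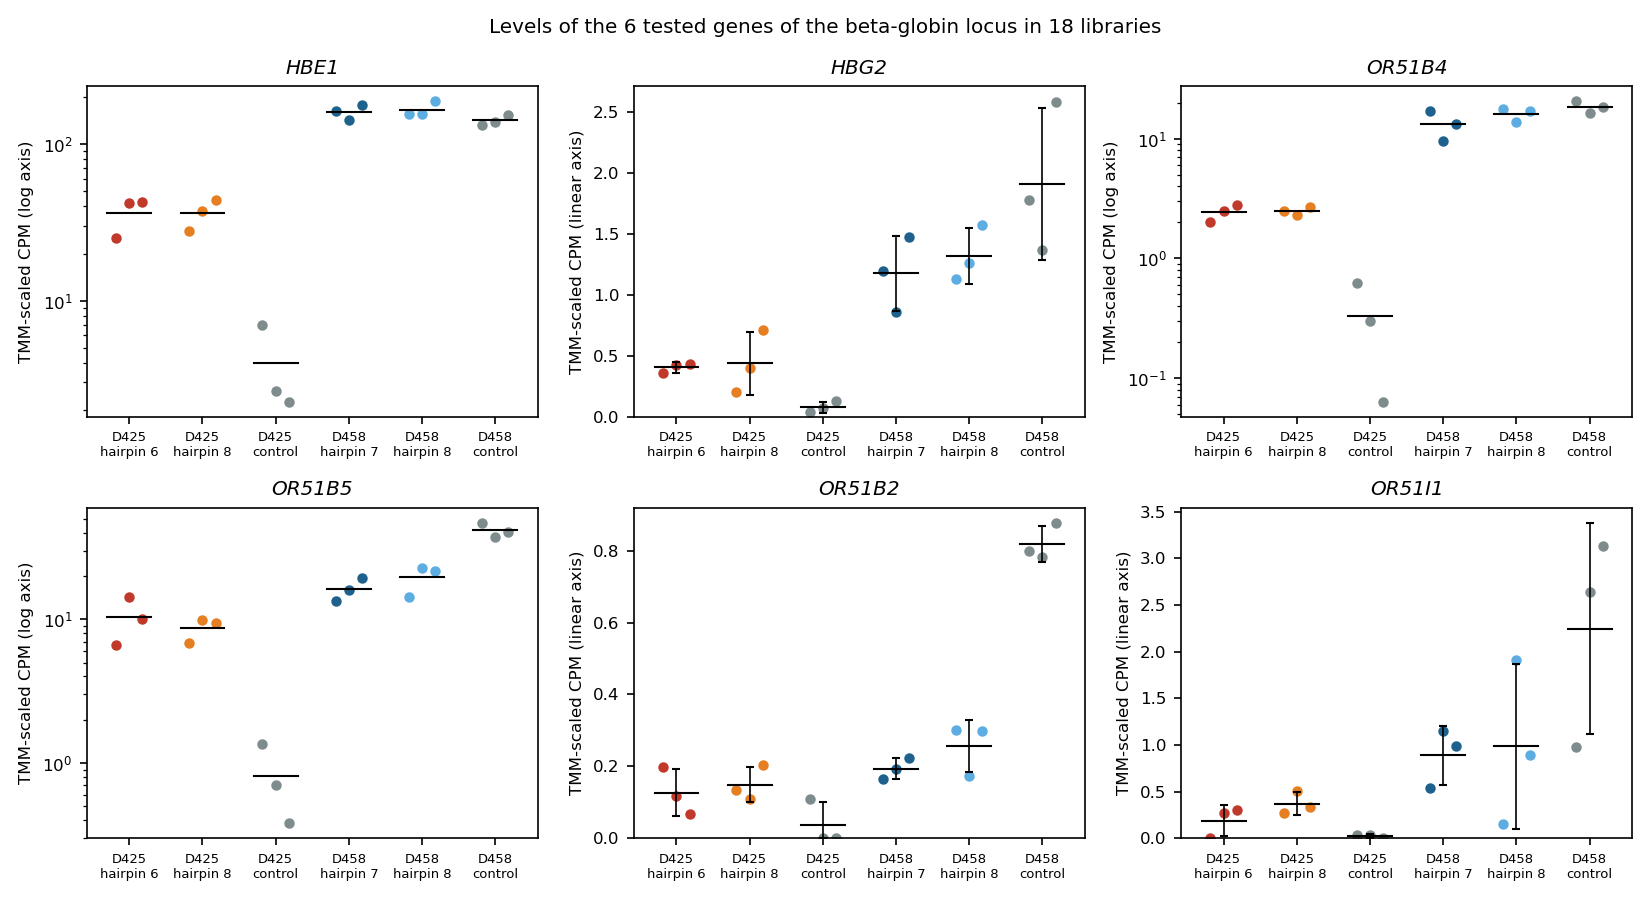
TMM-scaled CPM of the 6 tested genes in each of 18 libraries (points), with group means (horizontal lines) and, on linear axes, SD bars; HBE1, OR51B4 and OR51B5 are on log axes without bars. In D425 the hairpin groups sit above the control for HBE1 (means 36.5 and 36.6 against 3.96 CPM), while in D458 OR51B5 sits below its control (16.2 and 19.6 against 41.7 CPM).

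In D458, OR51B5 fell with both hairpins, while HBE1 did not pass the test with either. OR51B5 had 13.4, 15.9 and 19.3 CPM with hairpin 7 and 14.4, 22.8 and 21.5 CPM with hairpin 8, against 47.0, 37.5 and 40.6 CPM in controls. The highest hairpin library lay well below the lowest control. OR51B5 fell by 1.36 ± 0.28 on the log2 scale with hairpin 7 (edgeR quasi-likelihood test, adjusted p = 0.00403) and by 1.09 ± 0.28 with hairpin 8 (adjusted p = 0.0123). Leaving out replicate 1 of hairpin 8 ended the call for that hairpin (log2 fold change -0.90, adjusted p = 0.0624), and no library left out ended it for hairpin 7. Within the libraries of the later date, OR51B5 fell by 1.15 ± 0.17 with hairpin 7 and by 0.82 ± 0.17 with hairpin 8 (edgeR, adjusted p = 0.000598 and 0.00583), and the earlier date holds 1 library per group and allows no test.

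HBE1 in D458 had 163, 144 and 178 CPM with hairpin 7 and 155, 156 and 189 CPM with hairpin 8, against 133, 138 and 155 CPM in controls. Each hairpin library lay above the control of the same number, 3 of 3 with each hairpin. The libraries of hairpin 8 did not overlap the controls, and those of hairpin 7 did. The log2 fold change was 0.19 ± 0.27 with hairpin 7 (95% interval -0.39 to 0.77, adjusted p = 0.651) and 0.23 ± 0.27 with hairpin 8 (-0.35 to 0.81, adjusted p = 0.568). With the replicate number as a block the adjusted p was 0.646 and 0.569. Within the later date the log2 fold changes were 0.14 ± 0.12 and 0.24 ± 0.12 with hairpins 7 and 8 (edgeR, adjusted p = 0.464 and 0.214). A difference of HBE1 of the size seen in D425 lies outside both 95% intervals, whose spread was estimated from all 18 libraries of both lines.

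OR51B4 in D458 had 17.1, 9.54 and 13.3 CPM with hairpin 7 and 17.8, 13.9 and 16.95 CPM with hairpin 8, against 20.6, 16.4 and 18.3 CPM in controls. The groups overlapped for both hairpins. Its log2 fold changes of -0.47 ± 0.27 (95% interval -1.04 to 0.10, adjusted p = 0.215) and -0.18 ± 0.27 (-0.75 to 0.38, adjusted p = 0.649) did not pass the test.

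OR51B2 in D458 had 4, 4 and 5 counts with hairpin 7 and 8, 4 and 7 counts with hairpin 8, against 18, 16 and 21 counts in controls. The groups did not overlap, and the log2 fold changes were -2.06 ± 0.53 and -1.65 ± 0.51 with hairpins 7 and 8. Since OR51B2 passed the filter only through these controls, its place among the tested genes depends on the outcome, and no p-value of the filtered fit is given. With all genes of at least 1 count in the fit, the adjusted p was 0.0262 with hairpin 7 and 0.0635 with hairpin 8, so that the decrease passed the edgeR test with hairpin 7 and not with hairpin 8.

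OR51I1 in D458 had 13, 24 and 22 counts with hairpin 7 and 4, 44 and 21 counts with hairpin 8, against 22, 54 and 75 counts in controls. Each hairpin library lay below the control of the same number, although the groups overlapped. Its log2 fold changes of -1.34 ± 0.68 and -1.20 ± 0.68 with hairpins 7 and 8 did not pass the test (adjusted p = 0.163 and 0.208), and they did with the replicate number as a block (-1.30 and -1.34, adjusted p = 0.0278 and 0.0222). Within the later date they were -1.43 and -1.04 (edgeR, adjusted p = 0.0222 and 0.0801).

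HBG2 in D458 had 29, 18 and 33 counts with hairpin 7 and 30, 29 and 37 counts with hairpin 8, against 40, 28 and 62 counts in controls. The groups overlapped, and log2 fold changes of -0.70 ± 0.38 and -0.54 ± 0.37 did not pass the test (adjusted p = 0.184 and 0.309). HBG1 and HBG2 are near-identical, so reads could be assigned to either or dropped. As counted, 10 of 394 gamma globin counts were given to HBG1, a share of 2.54% (exact binomial 95% interval 1.22 to 4.62%, counting error only). By group, the share was 5 of 43 (11.6%, 3.89 to 25.1%) in D425 with hairpin 8, 1 of 34 with hairpin 6 and 0 of 7 in D425 controls. In D458 it was 1 of 81 and 3 of 99 with hairpins 7 and 8 and 0 of 130 (0 to 2.80%) in controls. The D425 hairpin 8 libraries had 0, 2 and 3 HBG1 counts, and a difference between groups was not tested.

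Of the 6 genes tested in D458, 2 were called lower with hairpin 7 and 2 with hairpin 8, OR51B5 and OR51B2 each time, and 0 were called higher. Over all genes tested, 22.6% were called with hairpin 7 and 23.2% with hairpin 8, with 11.1% called lower in each case. OR51B2 was tested only because its D458 controls reached the filter level, so the count of 2 is not read as a property of the locus. The hairpin and control libraries did not overlap for 2 of the 6 genes with hairpin 7 and for 3 with hairpin 8, shares close to the 43.1% and 41.5% of all genes tested. Both comparisons share the same 3 control libraries. Between the hairpins of a line, edgeR called 0 of these genes in either line, 0 had an unadjusted p under 0.05, and DESeq2 called 0. Over all genes edgeR called 0% in both cases, although 519 in D425 and 274 in D458 had an unadjusted p under 0.05 and DESeq2 called 6 and 4.

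**Figure D3:**
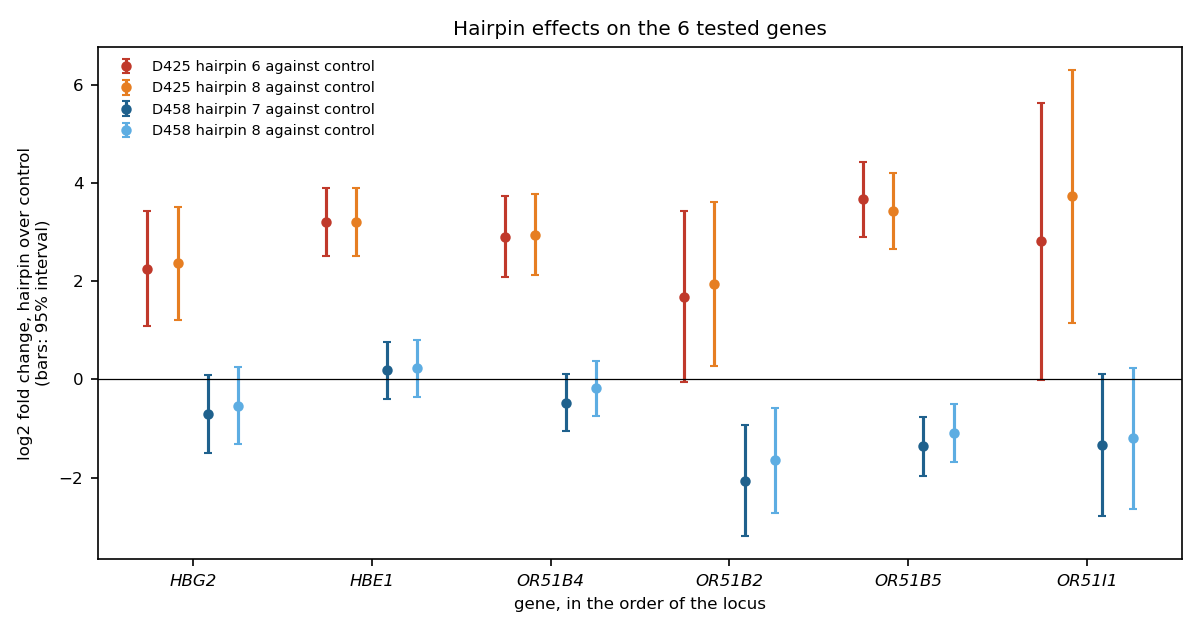
Log2 fold change, hairpin over control, of the 6 tested genes in the order of the locus, with 95% intervals from the edgeR fit (n = 3 libraries per group). All D425 points lie above 0, HBE1 in D458 lies at 0.19 and 0.23 with intervals across 0, and OR51B5 in D458 lies at -1.36 and -1.09 with intervals below 0.

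The lines started from very different levels. HBE1 averaged 142 ± 11.2 CPM in D458 controls and 3.96 ± 2.63 CPM in D425 controls, OR51B5 averaged 41.7 ± 4.87 and 0.814 ± 0.495 CPM in D458 and D425 controls, and OR51B4 18.4 ± 2.12 and 0.328 ± 0.280 CPM (SD, n = 3 each). The log2 fold changes, D458 over D425, were 5.17 ± 0.34 for HBE1, 5.69 ± 0.37 for OR51B5, 5.83 ± 0.38 for OR51B4 and 4.48 ± 0.50 for HBG2. The summed counts were 151 and 2 for OR51I1 in D458 and D425 controls, a ratio of 96.6 (exact 95% interval 26.3 to 805), and 55 and 3 for OR51B2, a ratio of 23.5 (7.62 to 117). All 6 genes were called higher in D458, where 62.8% of all genes tested were called and 31.4% were higher. This count is a description, since the D425 controls entered the choice of the genes and OR51B2 passed the filter only through D458 controls.

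Ordered from low to high, HBE1 ran from D425 controls over the D425 hairpin groups, which did not differ beyond their spread (36.5 ± 9.86 and 36.6 ± 8.23 CPM with hairpins 6 and 8), to the D458 groups. Even the highest D425 hairpin library, with 44.3 CPM, lay below the lowest D458 library, with 133 CPM. OR51B5 ran in another order, with D458 controls at the top. Its D425 hairpin groups (10.3 ± 3.81 and 8.70 ± 1.61 CPM with hairpins 6 and 8) and D458 hairpin groups (16.2 ± 2.92 and 19.6 ± 4.54 CPM with hairpins 7 and 8) lay close, and the highest library of D425 hairpin 6, with 14.3 CPM, exceeded the lowest library of D458 hairpin 7, with 13.4 CPM.

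Hairpin 8 was used in both lines. Its effect in D458 minus its effect in D425 was -4.52 ± 0.46 on the log2 scale for OR51B5, -3.14 ± 0.48 for OR51B4 and -2.98 ± 0.42 for HBE1, given without a test because D425 chose the genes. EYA2 was lower with it in both lines, with log2 fold changes of -1.79 ± 0.27 in D458 and -0.98 ± 0.27 in D425.

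Setting OR51B5 against HBE1 within each library removes library size and showed where the genes parted. This ratio was chosen after the values were seen. In D425 there were 28.02 ± 5.40 OR51B5 counts per 100 HBE1 counts with hairpin 6 and 24.0 ± 2.46 with hairpin 8, against 21.01 ± 5.13 in controls, and the groups overlapped. In D458 there were 8.23, 11.1 and 10.8 with hairpin 7 and 9.24, 14.6 and 11.4 with hairpin 8, against 35.2, 27.2 and 26.2 in controls. The D458 hairpin groups lay below their controls without overlap. No test is given, since the ratio was chosen from these values and 3 libraries against 3 cannot give a two-sided permutation p below 0.1.

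OR51B4 per 100 HBE1 counts was 6.84 and 7.05 in D425 with hairpins 6 and 8, against 7.66 in controls, with overlap. In D458 it was 8.18 ± 2.00 and 9.79 ± 1.46 with hairpins 7 and 8, against 13.04 ± 2.08 in controls. Those D458 groups did not overlap. The ratio of OR51B4 to HBE1 was thus lower in all 6 D458 hairpin libraries than in their controls, by a smaller factor than that of OR51B5.

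**Figure D4:**
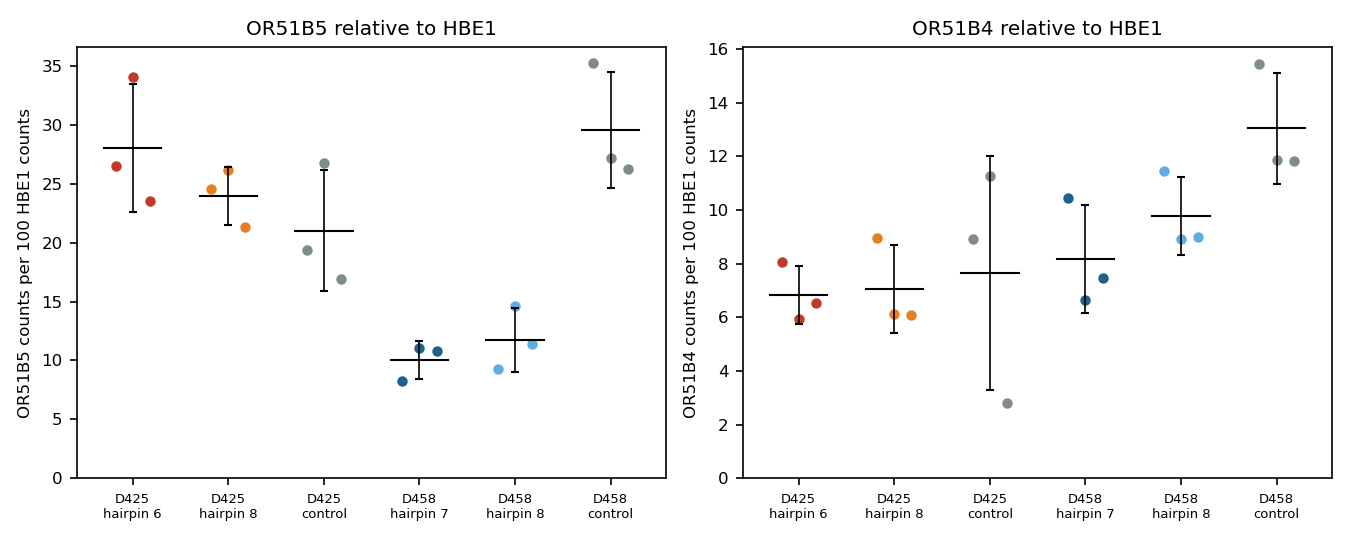
OR51B5 counts (left) and OR51B4 counts (right) per 100 HBE1 counts in each of 18 libraries (points), with group means and SD (n = 3 each). OR51B5 in D458 lies at 10.0 and 11.8 with the hairpins and at 29.6 in controls, while the 3 D425 groups overlap.

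Over the 18 libraries, log2 CPM of OR51B5 followed that of HBE1 with a Pearson r of 0.95, of OR51B4 with 0.94, of HBG2 with 0.90, of OR51B2 with 0.85 and of OR51I1 with 0.84. The libraries of the lines form separate clusters, so the pooled values hold the gap between the lines as well. Within the 9 libraries of D425 r between OR51B5 and HBE1 was 0.99, and within the 9 of D458 it was -0.48. With OR51B2, r was 0.78 within D425 and 0.90 within D458. The libraries of a line share its controls and hairpin groups, so these are descriptions.

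The 5 genes outside the locus most like OR51B5, by Pearson r of log2 CPM over the 18 libraries among 12736 genes of at least 1 CPM, were HMGA2 (0.97), FMN2 (0.96), DLG3 (0.95), DBI (0.95) and LRP11 (0.95). HBE1 would rank among them, with 3 genes above it. By Spearman's rho, 1 of the 5, FMN2, stayed among the leading 5. HMGA2, an architectural chromatin protein of embryonic and tumour cells, averaged 182 ± 11.5 and 183 ± 37.3 CPM in D425 with hairpins 6 and 8, against 69.1 ± 13.4 CPM in controls, and 253 ± 29.6 and 281 ± 32.1 CPM in D458 with hairpins 7 and 8, against 374 ± 48.8 CPM in controls. FMN2, an actin-nucleating formin, averaged 12.3 ± 0.822 and 12.9 ± 2.82 CPM in D425 with hairpins 6 and 8, against 2.00 ± 2.87 CPM in controls, and 37.0 ± 4.49 and 40.9 ± 6.72 CPM in D458 with hairpins 7 and 8, against 56.6 ± 4.76 CPM in controls. The D425 control libraries of FMN2 ranged from 0.127 to 5.30 CPM. In D458, LRP11 was called lower with both hairpins, HMGA2 with hairpin 7 only, and FMN2, DLG3 and DBI with neither. The log2 fold changes of DLG3 there were -0.16 ± 0.20 and -0.01 ± 0.20 with hairpins 7 and 8. All 5 genes were chosen for a pattern like that of OR51B5, so their values and calls are a description.

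Of 36 listed regulators of the beta-globin locus, 34 could be tested. In D425, 6 were called higher and 1 lower with hairpin 6, and 6 higher and 3 lower with hairpin 8. Over all genes, 14.1% and 21.7% were called in either direction, with 7.31% and 11.6% called higher. The regulator calls thus leaned to higher in D425, and whether the list differs from all genes was not tested. The median log2 fold changes were 0.04 and 0.06, beside 0.01 and 0.02 over all genes. SOX6 and BCL11A, which repress the embryonic and fetal globin genes in red cell precursors, averaged 14.6 ± 2.00 and 19.3 ± 2.17 CPM (SOX6) and 12.1 ± 0.205 and 12.5 ± 2.31 CPM (BCL11A) with hairpins 6 and 8, against 4.17 ± 2.34 and 6.41 ± 3.16 CPM in controls. KLF1, the erythroid factor that activates HBB, was called higher at low levels, 1.58 ± 0.123 and 1.81 ± 0.681 CPM with hairpins 6 and 8, against 0.612 ± 0.123 CPM in controls. HMGA2, whose levels are given above, is also on this list and was called higher with both hairpins. The nuclear receptor gene NR2C2 was called lower with both. It averaged 47.0 ± 1.28 and 47.1 ± 5.30 CPM with hairpins 6 and 8, against 60.8 ± 2.76 CPM in controls. ZFPM1 was called higher with both hairpins, at 2.95 ± 0.342 and 3.76 ± 0.162 CPM, against 2.11 ± 0.345 CPM in controls.

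In D458, 1 regulator was called higher and 7 lower with hairpin 7, and 1 higher and 5 lower with hairpin 8. Over all genes 22.6% and 23.2% were called in either direction, with 11.1% called lower in each case. The medians of the regulators were -0.16 and -0.13, beside 0.01 over all genes with either hairpin. The regulator calls thus leaned to lower in D458, which was not tested for the list. DNMT1, the maintenance DNA methyltransferase, fell by 0.59 ± 0.15 and 0.54 ± 0.15 on the log2 scale with hairpins 7 and 8 (adjusted p = 0.0124 and 0.0191). CTCF, which binds the insulators that flank the locus, fell by 0.34 ± 0.10 and 0.36 ± 0.10 (adjusted p = 0.022 and 0.0178). MBD2, a reader of methylated DNA, fell by 0.53 ± 0.13 and 0.43 ± 0.13 (adjusted p = 0.00857 and 0.0242). IGF2BP1, an RNA-binding protein of fetal cells, fell by 0.40 ± 0.10 with each hairpin (adjusted p = 0.0096 and 0.00959). KLF3 had log2 fold changes of -0.86 ± 0.24 and -0.84 ± 0.24 (edgeR, adjusted p = 0.0187 and 0.019). The stress factor ATF4 rose by 0.35 ± 0.06 and 0.22 ± 0.06 (adjusted p = 0.00101 and 0.0139).

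Among 11 testable genes around the locus that are neither globins nor receptors, 0 were called with hairpin 6 and 2 higher with hairpin 8 in D425, and 4 higher and 1 lower with hairpin 7 and 5 higher and 1 lower with hairpin 8 in D458. Over all genes the shares called were 14.1% and 21.7% in D425 and 22.6% and 23.2% in D458. SMPD1, the lysosomal acid sphingomyelinase, rose by 2.04 ± 0.44 and 2.03 ± 0.44 in D458 with hairpins 7 and 8 (adjusted p = 0.00509 and 0.00513). RRM1, a subunit of ribonucleotide reductase, fell by 0.37 ± 0.13 and 0.41 ± 0.13 (adjusted p = 0.044 and 0.0307). Medians over this list were 0.22 and 0.39 in D425 with hairpins 6 and 8, and 0.50 and 0.49 in D458 with hairpins 7 and 8, beside medians of 0.01 to 0.02 over all genes.

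The alpha globin gene HBA1 moved apart from HBE1 in D425, at low counts. HBA1, an alpha globin gene with the near-identical copy HBA2, averaged 0.109 ± 0.0993 and 0.127 ± 0.0519 CPM in D425 with hairpins 6 and 8, against 1.11 ± 0.484 CPM in controls. Its log2 fold changes were -3.27 ± 0.70 and -3.08 ± 0.68, opposite in sign to those of HBE1. They rest on 9 and 11 summed counts with hairpins 6 and 8, against 97 in controls. HBQ1, another globin gene of this list, had higher levels and was not called in D425. It averaged 14.3 ± 2.38 and 12.9 ± 3.67 CPM with hairpins 6 and 8, against 13.2 ± 2.83 CPM in controls. In D458, HBA1 averaged 0.302 ± 0.116 and 0.457 ± 0.114 CPM with hairpins 7 and 8, against 0.181 ± 0.158 CPM in controls. HBA1 did not pass the edgeR test there (adjusted p = 0.526 and 0.2). Of the 4 testable genes of this list, HBA1 was the only 1 called lower in D425, and myoglobin (MB) was called higher with hairpin 8 in D425 and with hairpin 7 in D458. In D425, MB rested on 25 counts with hairpin 8 and 1 count in controls. Its D458 hairpin 7 libraries ranged widely, from 0.717 to 4.48 CPM, against 0.538 to 0.666 CPM in controls.

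Red cell markers were mostly absent. Of 17 listed, 5 could be tested, and GATA1, GYPB and HEMGN had 0 counts in all 18 libraries, while ALAS2 and AHSP had 2 counts each. The summed level of the list ran from 55.1 to 71.1 and from 46.2 to 62.9 CPM in D425 with hairpins 6 and 8, against 36.3 to 52.1 CPM in controls. In D458 it ran from 9.67 to 18.3 and from 8.96 to 18.4 CPM with hairpins 7 and 8, against 3.69 to 4.01 CPM in controls. TRIM58, a ubiquitin ligase of late red cell precursors, had most of the counts of the list over the 18 libraries and rose by 2.98 ± 0.42 and 2.94 ± 0.42 on the log2 scale in D458 with hairpins 7 and 8 (adjusted p = 0.000334 and 0.000356). RHAG, a membrane protein of the Rh complex, averaged 5.56 ± 0.769 and 4.31 ± 0.912 CPM in D425 with hairpins 6 and 8, against 1.96 ± 0.741 CPM in controls. Of the 5 tested markers, 2 were called higher (RHAG and KLF1) and 1 lower (HBA1) with each D425 hairpin. In D458, 1 was called higher (TRIM58) and 0 lower with each hairpin. Over all genes 14.1% and 21.7% were called in D425, and 22.6% and 23.2% in D458. EPOR was not called with any hairpin. KLF1 in D458 had log2 fold changes of -0.78 and -0.98 with hairpins 7 and 8 (edgeR, adjusted p = 0.146 and 0.0735). The list was lower in D458 controls than in D425 controls, opposite to HBE1. Its part in the results on the locus was not tested.

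Markers of leukocytes and endothelium summed to at most 2.43 CPM in any library. Of 12 testable markers of Group 3 tumours and neurons, 3 were called higher and 1 lower in D425 with hairpin 6, 4 higher and 2 lower with hairpin 8, and 3 higher and 0 lower in D458 with each hairpin, beside 14.1%, 21.7%, 22.6% and 23.2% of all genes called in these 4 comparisons. The neuronal gene STMN2 was nearly absent from D425, at 0.0129 and 0.0333 CPM with hairpins 6 and 8 and listed at 0 in all 3 controls, and averaged 14.1 ± 2.14 and 14.4 ± 1.59 CPM in D458 with hairpins 7 and 8, against 7.48 ± 1.12 CPM in controls. In these bulk libraries, more cells that express a gene and more RNA of it per cell cannot be told apart.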

How the data were processed

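Polyadenylated RNA was sequenced from 18 libraries with a stranded kit, per the labels' protocols. The deposited table holds whole-number read counts per gene symbol, not normalized. The tools named are TopHat2, Bowtie2, HTSeq, SAMtools, Picard, FastQC and bcl2fastq, and the builds hg19 and GRCh37, per the submitters' processing notes. Not given in the sources used here are versions, annotation, strand setting and the handling of multiply mapped reads. Coordinates are not printed, because the reference annotation used for gene order (RefSeq and GENCODE release 29) is of another build.

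The counts were analysed in edgeR 4.0.16 (R 4.3.3, with limma 3.58.1), and DESeq2 1.42.0 served as an alternative. The function filterByExpr (minimum count 10) kept 14850 of 25369 genes. Levels are TMM-scaled CPM. A quasi-likelihood model with robust estimation and 1 coefficient per group was fitted to all 18 libraries (residual degrees of freedom 12, common BCV 0.153). The threshold was an adjusted p of 0.05, with Benjamini-Hochberg adjustment over the whole set of tested genes. The code was tested on simulated data. Ratios of low counts carry exact 95% intervals.

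Named are all 10 genes, EYA2, some called genes of the lists, the 5 genes most like OR51B5, and neighbours in the annotation. Not every called gene of a list is named, and those named are not always the ones of lowest adjusted p. Absent or near-absent markers, BCL11A and STMN2 as examples, and the ratio to HBE1 were chosen after values were seen. The genes and lists were chosen with earlier results of these data known. Alternatives were DESeq2, RLE size factors, no filter, a replicate block, the libraries of a line alone and leaving out each library. Same-numbered libraries of a line share a label in the deposited descriptions. They were taken as pairs in the replicate block and where same-numbered libraries are compared. The main fit held no block, so its p-values ignore this pairing. Within a line, replicate 1 has an earlier date than replicates 2 and 3, and what the date marks is not stated. Counts of replicates of a group differed beyond counting noise, with a chi-square per gene of 3.81 to 25.3 between libraries of the same date and 12.8 to 41.5 between dates. Deviations from the group means were correlated between libraries of different groups of a line. Same-numbered libraries gave 0.084 to 0.608 in D425 (8 of 9 pairs over 0.1) and 0.127 to 0.7 in D458 (9 of 9). Libraries of other numbers gave -0.405 to 0.197 in D425 and -0.604 to 0.343 in D458 (4 of 18 over 0.1 in each line). The labels do not say whether replicates came from separate transductions, so p-values measure the spread between these libraries.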

Additional observations from a re-analysis of the deposited data

Results flagged for a closer look

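With hairpin 8, 5 of the genes had values on opposite sides of the controls in the 2 lines, each library below the same-numbered control in D458 and above it in D425. The share of all tested genes with this pattern was not computed, so the count is not read as a property of the locus. The difference of the log2 fold changes, D458 minus D425, was -4.52 for OR51B5, -4.93 for OR51I1, -3.59 for OR51B2, -3.14 for OR51B4 and -2.90 for HBG2. The difference between the lines was not tested for these genes, since D425 values had chosen them, and in D458 OR51B4, HBG2 and OR51I1 did not pass the test of hairpin 8 against control. OR51B2 was tested only because its D458 controls reached the filter level. OR51I1 and OR51B2 rest on 2 and 3 counts in D425 controls.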

How the results depend on the processing

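No result reversed its direction under any alternative run. With DESeq2, RLE size factors and the 9 libraries of a line alone, the counts of these genes called and the log2 fold changes of each tested gene kept their side of the threshold. Without the filter, 1 of these genes was called in D458 with hairpin 8. With a replicate block, the calls over the whole table were 4134 and 5521 in D425 with hairpins 6 and 8 and 5937 and 5888 in D458 with hairpins 7 and 8, against 2101, 3221, 3357 and 3442 without it; the block changed no call of these genes other than OR51I1 in D458. Leaving out 1 library gave 948 to 2609, 1591 to 3423, 1290 to 2901 and 1467 to 3318 calls in these comparisons, with the lowest values without control replicate 3 in D425 and without replicate 1 of the hairpin in D458. Counts over 1.5 times smaller were also found in D425 with hairpin 6 without its replicates 1 and 3 (1280 and 1288) or control replicate 2 (1207), in D425 with hairpin 8 without its replicate 1 (2044) or control replicate 2 (2086), in D458 with hairpin 7 without control replicates 2 and 3 (2090 and 1919), and in D458 with hairpin 8 without control replicates 1, 2 and 3 (2263, 2204 and 2006). The called genes of the locus then numbered 4 to 5 with each D425 hairpin, 1 to 2 with hairpin 7 and 0 to 1 with hairpin 8 in D458. In D425 with hairpin 8, OR51I1 lost its call without any 1 of the 6 libraries, and OR51B2 gained one without control replicate 1, with log2 fold changes of 4.72 and 4.98 for hairpins 6 and 8. The mean of OR51B5 counts per 100 HBE1 counts, left out library by library as an alternative chosen after seeing the data, stayed between 9.53 and 13.02 in D458 hairpin groups and between 26.7 and 31.2 in D458 controls. With the 12 libraries of the later date alone, also chosen after seeing the data, the calls over the whole table were 3431 in D425 with hairpin 6 and 2235 in D458 with hairpin 8, and the called genes of the locus numbered 5 and 6 in D425 with hairpins 6 and 8 and 3 and 2 in D458 with hairpins 7 and 8. The share of HBG1 ran from 1.89 to 3.01%. With the block, the regulator list had 17 and 15 calls in D458 with hairpins 7 and 8. The causes of these shifts were not tested. Depth limits HBG2, OR51I1 and OR51B2, whose changes rest on few counts, and leaves HBB, HBG1, OR51I2 and OR51B6 untested.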
